A study of Rattus norvegicus with 2 samples.

Results

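The 43 genes described here encode the parts of the transport and gating machinery of the primary cilium that the annotation of the array names. They were taken by symbol: 30 had a name of the Ift, Bbs, Tctn, Nphp, Dync2 or Kif3 series, and 13 of 17 further ciliary genes on a fixed list were found by name. Wdr34 and Wdr60 of that list were found under their present names, Dync2i2 and Dync2i1, which the name pattern already held, while Cep164 and Arl13b had no named probe. They are 43 of 15037 named genes on the array, each read by 1 probe set.

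Epidermal keratinocytes, which form the surface layer of skin, had been taken from newborn rats and cultured in medium with serum and hydrocortisone. One culture (siTet2/3) was transfected with siRNAs against Tet2 and Tet3, at 1 µM each, and after 24 h received vitamin C for 12 h. The other (control) was grown without these siRNAs and also received vitamin C for 12 h. Its title reads NC+VC. The labels do not say whether it received another siRNA, and describe its cells as non-treated. TET enzymes start the removal of DNA methylation by oxidising it, and vitamin C supports this reaction. Each group had 1 array, so no test was possible, none of the differences could be set against replicates, and "higher" or "lower" refers to this pair of arrays. The labels do not say how many animals gave the cells or whether the cultures came from the same preparation. Tet2 and Tet3 had no named probe, so the size of the knockdown was not analysed here.

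The primary cilium is a single antenna-like projection that most resting cells, basal keratinocytes among them, grow from the mother centriole and take down again before division. Cargo moves along it on trains of intraflagellar transport (IFT) proteins. Kinesin-2 motors carry the trains to the tip with the IFT-B complex, and dynein-2 brings them back with the IFT-A complex. The BBSome, an adaptor complex named after Bardet-Biedl syndrome, rides these trains and takes membrane proteins out of the cilium. The transition zone at the ciliary base acts as a gate, and many Hedgehog pathway proteins work in the compartment behind it.

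Values are log2 signals deposited per probe set. A gene was taken as above background where the higher of its values passed 5.04 log2 units, the 95th percentile over 1206 chemoreceptor genes, and it was called where the difference was at least 1.5-fold. A stricter floor, from 1153 negative-control probes, lay at 8.31. Of the 43 members, 35 passed the lower floor, 32 of them on both arrays, and 10 passed the stricter one. As a gauge of scatter, the local robust SD is the spread of the differences of the 400 genes nearest in mean level. It ran from 0.36 to 0.61 log2 units for the members above the floor, and it is a spread over genes, not an error of replicates.

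The ciliary genes did not differ in 1 direction. On the siTet2/3 array 8 of the 35 members above the floor passed the limit upwards, against 8.63% of the 8103 named genes above the floor, and 5 downwards, against 13.2%. These are 22.9% and 14.3% of the members, so the share of lower members lay near that of all genes and the share of higher ones above it. The other 22 differed by -0.56 to 0.48 log2 units. Of the chemoreceptor genes that gave the lower floor, 17.2% passed the same limit upwards and 11.7% downwards. Members above the floor were also dimmer than all named genes above it. Their median signal was 6.76 log2 units on the siTet2/3 array and 7.01 on the control array, against 8.15 and 8.21. How far low signal accounts for the share of higher members was not tested. A gene with 1 value below the floor had to differ to be called, so the counts without such genes and without any floor are given too. Among the 32 members above the floor on both arrays, 7 were higher (background 6.82%) and 4 lower (12.0%). Over all 43 members with no floor set, 8 were higher and 8 lower, where the background was 11.2% in each direction.

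The median difference was 0.12 log2 units over the 35 members and -0.05 over all named genes above the floor. Over all 43 members it was -0.0067, and 0.00 over all named genes. Ift56 and Ift22 were more than 2-fold lower and Bbs5 and Cep290 more than 2-fold higher, which makes 2 of 35 in each direction beside backgrounds of 3.05% lower and 1.81% higher. All 5 lower members lay below 8.31 log2 units on both arrays. Among the 25 members between the floors, 5 were higher (background 11.3%) and 5 lower (15.5%). Among the 10 brighter members, 3 were higher (6.01%) and 0 lower (11.0%). A limit of 3 local robust SDs left Ift56 alone on the lower side (0.642%) and 0 members on the higher side (0.383%).

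**Figure D1:**
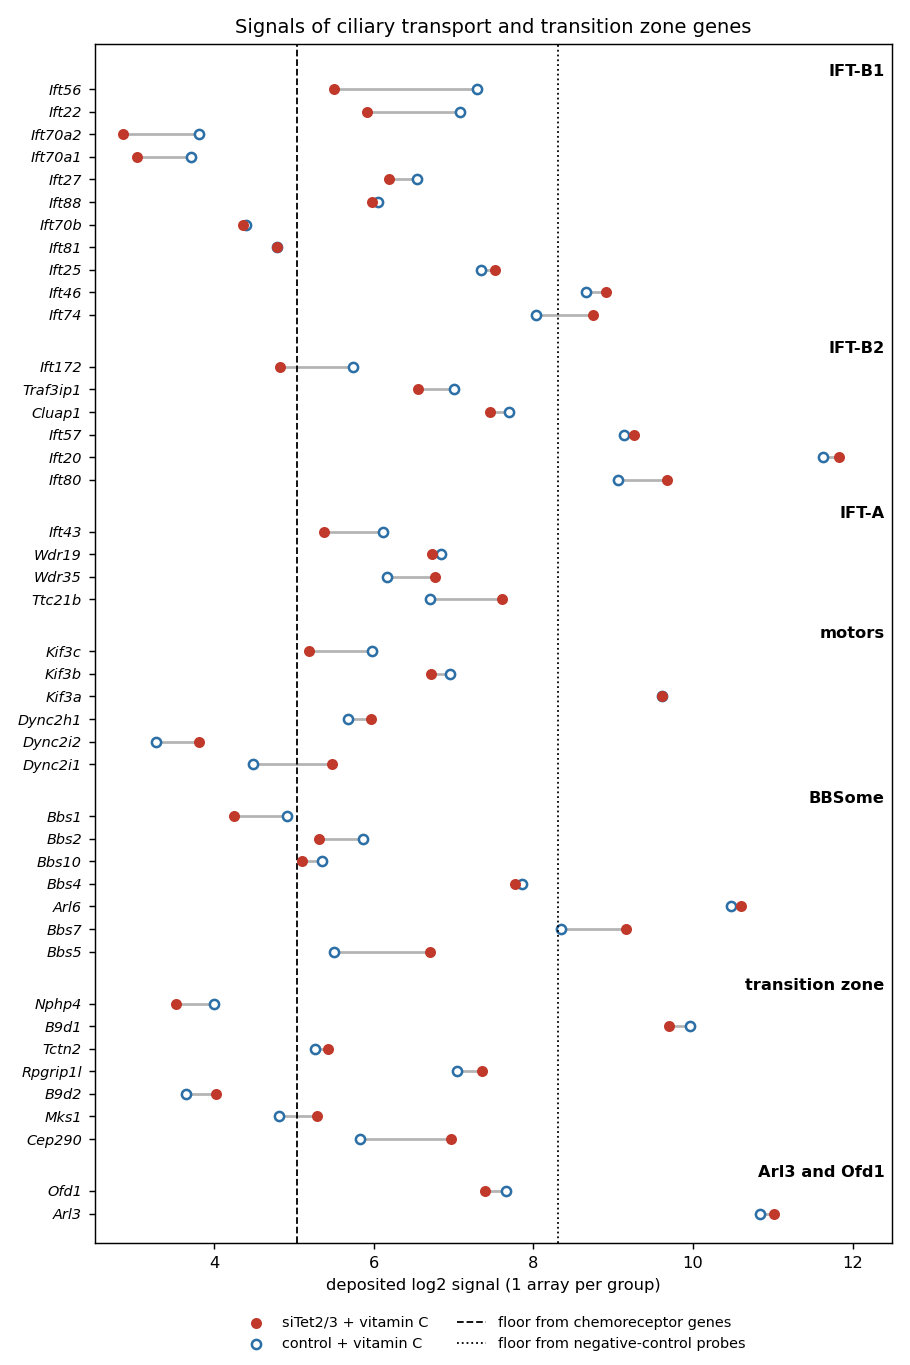
Deposited log2 signal (x axis) of each of the 43 members (rows, grouped by role) on the siTet2/3 array (filled red) and the control array (open blue), 1 array each, with both background floors as vertical lines. Signals run in both directions within nearly every group, and Ift56 shows the widest gap, 5.51 on the siTet2/3 array against 7.29 on the control array.

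IFT-B carries outbound cargo and has a core, IFT-B1, and a peripheral part, IFT-B2. Of 11 core members, 7 passed the floor, and 2 were lower, 1 higher and 4 neither. Beside this count and those of the other roles stand 8.63% higher and 13.2% lower over all named genes above the floor. Ift56 (older name Ttc26), a core subunit needed for the delivery of some ciliary cargo, differed most among all members. It read 5.51 log2 units on the siTet2/3 array and 7.29 on the control array, 3.45-fold lower, a difference of -1.79 or 3.31 local robust SDs. Both values lay above the chemoreceptor floor and below the negative-control floor. Ift22 (Rabl5), a small GTPase-like subunit that binds the Ift74 and Ift81 pair, came next. It read 5.91 on the siTet2/3 array against 7.08 on the control array, which is 2.25-fold lower.

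Ift74, a coiled-coil subunit that with Ift81 binds tubulin, went the other way. It read 8.75 log2 units on the siTet2/3 array and 8.03 on the control array, or 1.64-fold higher. Its partner Ift81 stayed below the floor, at 4.79 on both arrays, so the pair could not be compared. Ift25 and Ift27, which form a pair needed for the exit of Hedgehog components from the cilium, were neither: Ift25 read 7.51 on the siTet2/3 array against 7.34 on the control array, and Ift27 6.19 against 6.54. Ift88, whose loss abolishes cilia in mice, read 5.98 on the siTet2/3 array and 6.05 on the control array. Ift46 read 8.92 on the siTet2/3 array and 8.66 on the control array. Neither of these core subunits came near the 1.5-fold limit.

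The remaining core genes, Ift70a1, Ift70a2 and Ift70b, are close paralogs that lie next to each other in the rat genome, and their probe sets may not tell them apart. None passed the floor. Their signals lay between 2.85 and 4.36 log2 units on the siTet2/3 array, and the differences were -0.67, -0.96 and -0.04.

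To set the strongest differences beside their regulatory sequence, the promoters of the 4 members past 2-fold are shown, each 300 bases from 250 before to 50 after the transcription start, from RefSeq on GRCr8. Many ciliary genes are known targets of RFX transcription factors, which bind a site called the X-box. Capitals mark matches to the X-box pattern (GTNNCC, any 3 bases, then GNNAC) or to the half-site GTTGCC, searched on both strands; both can overlap. The windows are Ift56 at chr4:68057330-68057629 (plus strand), Ift22 at chr12:25405461-25405760 (minus), Bbs5 at chr3:74818390-74818689 (plus) and Cep290 at chr7:37196533-37196832 (plus).
Ift56: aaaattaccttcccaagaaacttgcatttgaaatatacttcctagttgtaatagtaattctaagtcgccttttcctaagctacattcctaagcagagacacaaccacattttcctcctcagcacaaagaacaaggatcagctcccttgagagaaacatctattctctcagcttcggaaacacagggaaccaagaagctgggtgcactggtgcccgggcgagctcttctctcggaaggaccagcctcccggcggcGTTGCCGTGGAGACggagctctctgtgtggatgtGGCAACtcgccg
Ift22: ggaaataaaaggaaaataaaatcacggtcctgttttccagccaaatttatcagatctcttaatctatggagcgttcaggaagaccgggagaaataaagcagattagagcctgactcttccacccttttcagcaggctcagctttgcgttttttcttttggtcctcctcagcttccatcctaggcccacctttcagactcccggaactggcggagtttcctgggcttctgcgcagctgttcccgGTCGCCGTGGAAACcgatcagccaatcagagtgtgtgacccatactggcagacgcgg
Bbs5: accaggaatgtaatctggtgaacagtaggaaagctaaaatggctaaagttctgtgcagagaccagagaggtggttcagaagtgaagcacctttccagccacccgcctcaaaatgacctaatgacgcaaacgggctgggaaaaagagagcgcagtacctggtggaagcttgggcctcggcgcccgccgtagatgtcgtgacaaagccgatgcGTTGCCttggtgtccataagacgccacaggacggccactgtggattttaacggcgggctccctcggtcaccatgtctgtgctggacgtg
Cep290: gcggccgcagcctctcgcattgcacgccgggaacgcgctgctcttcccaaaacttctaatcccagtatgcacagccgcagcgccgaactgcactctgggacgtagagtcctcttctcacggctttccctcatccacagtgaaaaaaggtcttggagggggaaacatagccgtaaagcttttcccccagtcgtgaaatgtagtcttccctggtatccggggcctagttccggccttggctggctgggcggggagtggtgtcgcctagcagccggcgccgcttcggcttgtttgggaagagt

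Ift56 held the match GTTGCCGTGGAGAC, which begins 5 bases into the transcript and contains a half-site, and 1 further half-site on the other strand. Ift22 held GTCGCCGTGGAAAC, which begins 7 bases before the start. Both members most reduced on the siTet2/3 array thus carried a match close to the start, while the Bbs5 window held only a half-site and the Cep290 window neither. Over the 36 members with a promoter in the table, taking the first listed start of each gene, 7 held the full pattern (19.4%), against 4.60% of all 27457 promoters and 342 of 6839 named genes above the floor. Beside Ift56 and Ift22 these were Ift70a2 (position -11), Nphp4 (-232), Wdr19 (-34), Arl6 (-13) and Mks1 (-56), in bases from the start. Matches near the start were thus also present in Wdr19, Arl6 and Mks1, which were called neither. The half-site was present in 18 of 36, against 12.2% of all promoters. Promoters of Arl3, Bbs10, Dync2h1, Ift25, Ift57, Ift74 and Ift80 were not used here. By call, the full pattern was in 0 of 6 higher members with a promoter, 2 of 5 lower ones, 3 of 17 that were neither and 2 of 8 below the floor. Those letters describe the windows only and show no binding.

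CpG dinucleotides, the usual place of DNA methylation in mammals, numbered 12 in the Ift56 window, 13 in that of Ift22, 17 in that of Bbs5 and 22 in that of Cep290. The median was 21 over the 6 higher members and 13 over the 5 lower ones, with 22 over named genes above the floor and 7 over all promoters. Among the lower members the counts were spread from 10 in Kif3c to 27 in Ift172, and among the higher ones from 17 in Bbs5 to 36 in Dync2i1, so the ranges overlapped. Methylation itself was not measured on these arrays.

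In the peripheral part, IFT-B2, all 6 members passed the floor, and 1 was higher, 1 lower and 4 neither. Ift172, the largest IFT-B subunit, read 4.82 log2 units on the siTet2/3 array, below the floor, and 5.74 on the control array, so its fold is a bound, at least 1.62-fold lower. Ift80 read 9.67 on the siTet2/3 array and 9.06 on the control array, 1.53-fold higher and close to the limit. Ift80 was bright on both arrays, while Ift172 sat near background.

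Ift20, which also acts at the Golgi and brings membrane proteins to the cilium, read 11.83 log2 units on the siTet2/3 array and 11.63 on the control array. Ift57 read 9.26 on the siTet2/3 array and 9.13 on the control array. Cluap1 (Ift38) read 7.46 on the siTet2/3 array against 7.70 on the control array, and Traf3ip1 (Ift54), a microtubule-binding subunit, 6.55 against 7.01. None of these 4 differed by more than its local robust SD.

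IFT-A, which serves the return journey and the import of membrane receptors, had 4 members, all above the floor: 2 were higher, 1 lower and 1 neither. Ttc21b (Ift139) read 7.61 log2 units on the siTet2/3 array and 6.71 on the control array, 1.86-fold higher. Wdr35 (Ift121) read 6.76 on the siTet2/3 array and 6.17 on the control array, 1.51-fold higher and just past the limit. Ift43, a small subunit that binds Wdr35, differed the other way. It read 5.38 on the siTet2/3 array and 6.12 on the control array, 1.67-fold lower. Wdr19 (Ift144), a core subunit, read 6.73 on the siTet2/3 array and 6.85 on the control array, so subunits of 1 complex were found in all 3 classes.

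The motor genes were likewise mixed, with 1 higher, 1 lower and 3 neither among 5 above the floor. Kif3a and Kif3b encode the kinesin-2 motor subunits that work together in cilia. Kif3a read 9.61 log2 units on both arrays, and Kif3b 6.72 on the siTet2/3 array against 6.96 on the control array. Kif3c, an alternative partner of Kif3a studied mostly in neurons, was 1.73-fold lower, at 5.19 on the siTet2/3 array and 5.98 on the control array. The lower value stood just above the floor.

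Of the dynein-2 genes, the heavy chain gene Dync2h1 read 5.96 log2 units on the siTet2/3 array and 5.68 on the control array. Dync2i1 (Wdr60), an intermediate chain, read 5.47 on the siTet2/3 array and 4.49, below the floor, on the control array. It was at least 1.35-fold higher, and it counted as higher only by the difference as measured. The other intermediate chain gene, Dync2i2 (Wdr34), was below the floor on both arrays, at 3.81 on the siTet2/3 array and 3.27 on the control array.

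**Figure D2:**
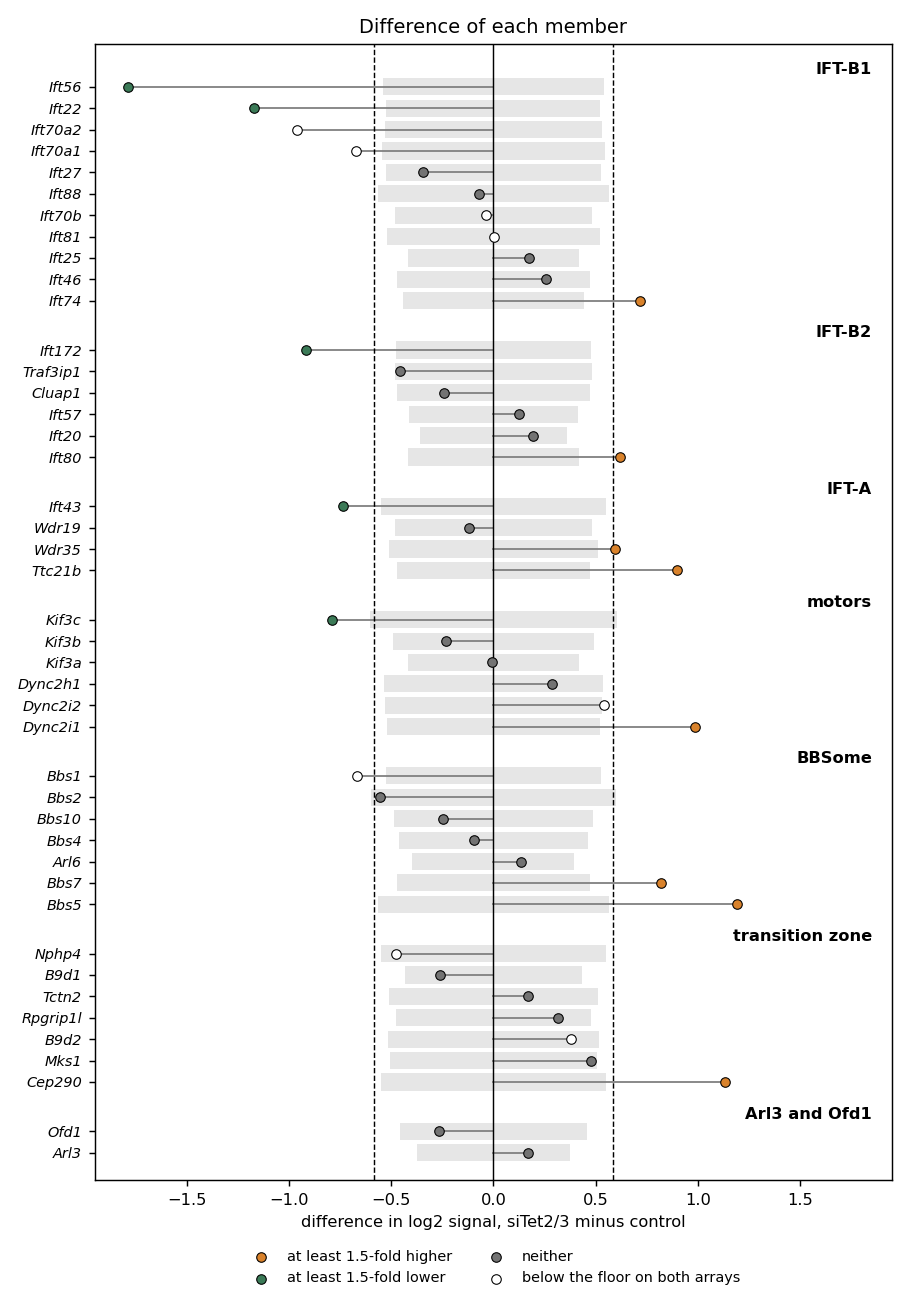
Difference in log2 signal, siTet2/3 minus control (x axis), of each member by role. Dashed lines mark 1.5-fold, grey bars reach 1 local robust SD to each side of 0, and point colours give the call: 8 members were higher, 5 lower, 22 neither and 8 below the floor on both arrays.

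Among the BBSome and its helpers, 2 of 6 genes above the floor were higher, 0 were lower and 4 neither. Bbs5, a subunit with lipid-binding domains, had the largest increase of all members. It read 6.70 log2 units on the siTet2/3 array and 5.51 on the control array, 2.29-fold higher or 2.11 local robust SDs. Bbs7, a subunit that assembles with Bbs2 in an early intermediate of the complex, was bright and 1.76-fold higher, at 9.16 on the siTet2/3 array and 8.34 on the control array. Bbs2 itself read 5.31 on the siTet2/3 array against 5.87 on the control array, 1.47-fold lower and short of the limit. The assembly partners thus differed in opposite directions, with Bbs2 inside its local robust SD of 0.60.

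Bbs4, which links the complex to centriolar satellites, read 7.77 log2 units on the siTet2/3 array and 7.86 on the control array. Bbs10, a chaperonin-like protein needed for assembly rather than a subunit, read 5.10 on the siTet2/3 array and 5.35 on the control array. Arl6, the small GTPase that recruits the BBSome to membranes, was bright, at 10.61 on the siTet2/3 array and 10.47 on the control array. Bbs4, Bbs10 and Arl6 were therefore neither higher nor lower by the limit. Bbs1, the subunit that Arl6 binds, was below the floor, at 4.25 on the siTet2/3 array and 4.92 on the control array.

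In the transition zone, 1 of 5 genes above the floor was higher, 0 were lower and 4 neither. Cep290, a large protein that spans the gate between microtubules and membrane, read 6.96 log2 units on the siTet2/3 array and 5.83 on the control array, 2.19-fold higher or 2.06 local robust SDs. Mks1, one of a trio of B9-domain proteins of the gate, read 5.29 on the siTet2/3 array and 4.82, below the floor, on the control array, which bounds its fold at 1.19. Its partner B9d1 was bright and differed by -0.26, at 9.70 on the siTet2/3 array and 9.96 on the control array. B9d2 was below the floor on both arrays, so the trio could not be compared as a whole.

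Rpgrip1l, a scaffold on which the gate assembles, read 7.35 log2 units on the siTet2/3 array and 7.04 on the control array. Tctn2, a tectonic protein of the same gate, read 5.43 on the siTet2/3 array and 5.26 on the control array. Nphp4, a nephrocystin, stayed under the floor and differed by -0.48. B9d2 read 4.02 on the siTet2/3 array and 3.64 on the control array, also under the floor. Arl3, the GTPase that releases lipid-anchored cargo inside the cilium, read 11.01 on the siTet2/3 array and 10.84 on the control array. Ofd1, a protein of the distal centriole, read 7.39 on the siTet2/3 array and 7.66 on the control array. Rpgrip1l, Tctn2, Arl3 and Ofd1, the 4 of these above the floor, each differed by less than 1.5-fold.

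**Figure D3:**
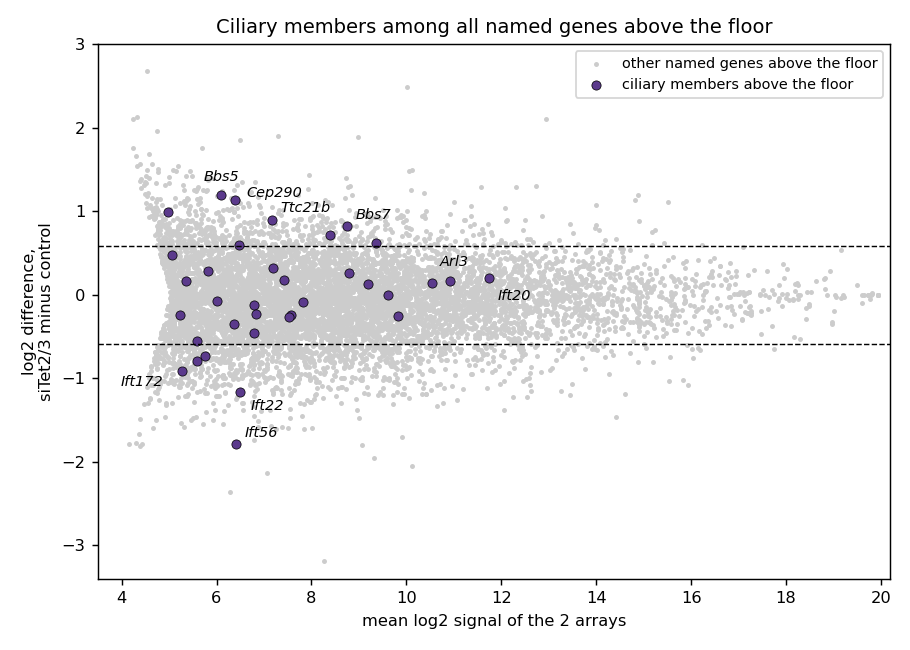
Difference in log2 signal, siTet2/3 minus control (y axis), against the mean log2 signal of both arrays (x axis) for named genes above the floor (grey) and the 35 members above it (purple), with dashed lines at 1.5-fold. Most members lie in the dimmer part of the range, where grey points are also widely spread. Ift56 lies lowest among the members, at -1.79, while grey points reach down to -3.18.

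For 3 of the 4 members past 2-fold, a neighbouring gene could be read, and each such neighbour differed by less than 1.5-fold. The nearest named genes beside Ift56 are Zc3hav1, which read 9.35 log2 units on the siTet2/3 array and 9.52 on the control array, and Ubn2, which read 7.73 on the siTet2/3 array and 7.88 on the control array. Beside Cep290, Tmtc3 differed by 0.11 and Rlig1 by -0.05, and beside Ift22, Fis1 differed by -0.04. Col26a1 beside Ift22 and both neighbours of Bbs5, Lrp2 and Klhl41, were below the floor, so the surroundings of Bbs5 could not be compared. Members were longer genes than most: their median length on GRCr8 was 39.6 kb above the floor, against 22.2 kb for the other named genes above it. The 8 higher members had a median of 67.2 kb, the 5 lower ones 39.4 kb and the other 22 members 36.0 kb. Across the 35 members, log10 length and the difference had a Pearson correlation of 0.21 (Spearman 0.26). Across the 8103 named genes above the floor these were 0.08 and 0.10. Genes on these arrays were read from the same RNA samples and are not independent points.

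Further ciliary genes were taken from 8 lists, leaving out the members. The lists were chosen with earlier results of these data known. Beside their counts stand the shares of all named genes above the floor, 8.63% higher and 13.2% lower. Ccp110, Cep97, Dynlt1 and Rabl2 are each in 2 lists. Of 11 other transition zone genes above the floor, 1 was higher and 2 lower, with a median of 0.12 log2 units. Cspp1, a microtubule-stabilising protein, was 1.57-fold higher, at 7.12 on the siTet2/3 array and 6.47 on the control array. Tmem67 (meckelin), a membrane receptor of the gate, was 1.82-fold lower, at 7.25 on the siTet2/3 array and 8.11 on the control array, and Tmem107 was 1.62-fold lower. With 11 genes, these counts lay near the shares of all named genes.

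Of 9 partners of IFT and the BBSome, 0 were higher and 0 lower, with a median of -0.25. The largest difference was that of Dynlt1, a dynein light chain, which read 6.30 log2 units on the siTet2/3 array and 6.88 on the control array. Among 21 genes of the distal appendages and the start of ciliogenesis, 4 were higher (8.63% over all named genes) and 1 lower (13.2%). Ccp110, a cap protein that must leave the mother centriole before a cilium grows, read 5.95 on the siTet2/3 array and 4.63, below the floor, on the control array, at least 1.88-fold higher. Exoc5, a subunit of the exocyst, was 1.66-fold higher and Fuz, a planar polarity effector needed for ciliogenesis, 1.59-fold higher. Mark4, a kinase that acts at the start of ciliogenesis, was the other higher gene (1.51-fold). Cep19, which recruits IFT-B to the ciliary base, was 2.35-fold lower, at 9.43 on the siTet2/3 array and 10.67 on the control array. The median of the list was 0.06.

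The list of genes for lipid-anchored cargo and the ciliary membrane had 1 of 9 higher, 0 lower and a median of -0.11. Rp2, which inactivates Arl3, was 1.82-fold higher, at 8.73 log2 units on the siTet2/3 array and 7.87 on the control array, while Arl3 itself was called in neither direction. In the Hedgehog pathway 8 of 17 genes on the array passed the floor, with 1 higher, 1 lower and a median of 0.03. Evc2, which acts at the ciliary base downstream of Smo, was at least 1.59-fold higher, at 5.70 on the siTet2/3 array and 4.30 on the control array. Cdon, a co-receptor, was 2.12-fold lower, at 5.48 on the siTet2/3 array and 6.56 on the control array. Smo, the signal transducer that enters the cilium, read 9.31 on the siTet2/3 array and 9.37 on the control array, whereas the pathway target Gli1 was below the floor on both.

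Of 12 cilium disassembly genes, 1 was higher, Ccp110 as already counted above, and 1 lower. The lower gene was Aurka, the kinase that starts disassembly. It was 1.53-fold lower, at 7.72 log2 units on the siTet2/3 array and 8.33 on the control array. The median of that list was -0.21. Plk1, a mitotic kinase that also promotes disassembly, read 10.91 on the siTet2/3 array and 10.89 on the control array. The list of RFX factors, their partners and ciliogenic transcription factors had 7 genes above the floor. Of these 2 were lower and 0 higher, with a median of -0.08, and not all 7 are known for ciliary genes. Rfx7 was 2.03-fold lower, at 8.55 on the siTet2/3 array and 9.57 on the control array, and Rfxank, a partner of Rfx5 in the control of class II histocompatibility genes, was 1.58-fold lower. The family members best known for ciliary genes were dim or unnamed: Rfx2 read 5.33 on the siTet2/3 array and 5.38 on the control array, and Rfx3 had no named probe. Among 11 genes of tubulin modification and the axoneme, Agtpbp1, a deglutamylase, was 1.74-fold higher, 0 were lower and the median was -0.14.

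**Figure D4:**
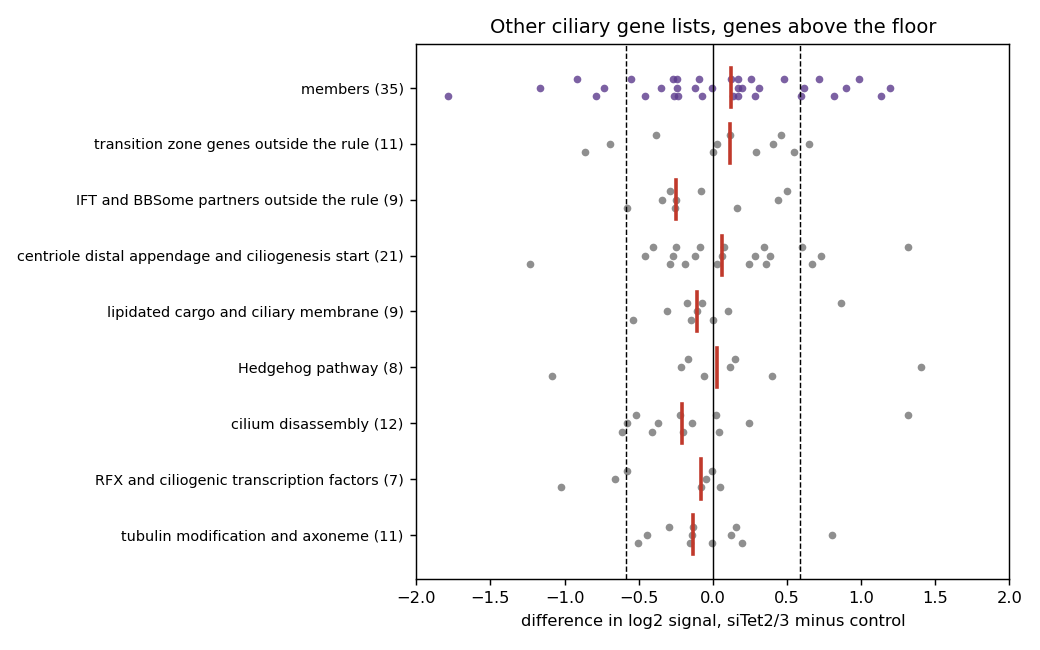
Difference in log2 signal, siTet2/3 minus control (x axis), of the 35 members above the floor (purple) and of genes above the floor in 8 other ciliary lists (grey), with the number of genes in brackets, list medians in red and dashed lines at 1.5-fold. List medians lie between -0.25 and 0.12, and most points of each list lie inside the 1.5-fold lines.

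Keratinocyte markers were present and those of most other cell types near background. All 6 keratinocyte markers on the array passed the floor on both arrays; their median difference was -0.25 and 0 passed 1.5-fold. Krt14 read 18.70 log2 units on the siTet2/3 array and 18.54 on the control array, and Dsg3 differed by 0.02. The other 4 were lower on the siTet2/3 array, with differences of -0.45 for Krt1, -0.41 for Tp63, -0.37 for Itgb4 and -0.13 for Itga6. Of 9 markers of motile ciliated cells only Deup1 passed, at 5.05 on the siTet2/3 array and 5.29 on the control array, and the master regulator gene Foxj1 read 4.59 on the siTet2/3 array and 4.14 on the control array, below the floor. The summed signal of the motile list was 7.03 log2 units on the siTet2/3 array and 7.07 on the control array. None of 8 fibroblast and 4 melanocyte markers passed the floor, with summed signals of 6.90 and 5.69 on the siTet2/3 array and 6.69 and 5.38 on the control array. Of 6 immune markers Cd68 and Cd14 passed, Cd14 being 1.69-fold lower, and the sum was 8.82 on the siTet2/3 array and 9.47 on the control array, with Ptprc below the floor. Of 4 endothelial markers only Tek passed, and the sum was 9.35 on the siTet2/3 array and 9.73 on the control array. The part of the immune and endothelial sums in the members' differences was not tested. In bulk RNA, fewer cells of a type and less RNA per cell cannot be told apart, and the arrays do not show how many cells carried a cilium.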

How the data were processed

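Total RNA of 1 siTet2/3 and 1 control culture was labelled as cDNA with a whole-transcript kit and read on 1 array each, per the labels' protocols. The authors deposited log2 signals per probe set; per the submitters' processing notes, RMA and the Transcriptome Analysis Console were used, without versions or settings, and the build is not given in the sources used here. Array medians were 4.90 (siTet2/3) and 4.85 (control), so folds are relative to the bulk of genes. Deposited values end at 19.93.

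The table's 15049 named probes covered 15037 genes (mean over probes). Differences are siTet2/3 minus control. The floor was the 95th percentile, over olfactory, vomeronasal, taste and trace amine receptor genes, of the higher value. Where 1 value lay below it, the fold is the brighter value over the floor. The local robust SD is 1.4826 times the median absolute deviation over the 400 genes nearest in level. Members, lists and roles were chosen with earlier results of these data known. Every member above the floor was named, and of each list up to 3 genes per direction past 1.5-fold or otherwise the largest difference; Mark4, Plk1, Smo, Gli1, Rfx2 and Rfx3 and the neighbouring genes were named after their values were seen. Alternatives changed the floor, scaling, fold limit and probe summary (Python 3.11.15, statsmodels 0.14.6). Promoters came from RefSeq on GRCr8. The procedure was tested on simulated data, with changes of 2-fold or more planted in genes well above the floor. That simulation did not cover changes of 1.5-fold or genes near the floor.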

Additional observations from a re-analysis of the deposited data

How the results depend on the processing

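The number of higher members was 8 without a floor, under centring (background 10.4%), after a lowess trend on level was taken out (10.2%) and with the brightest probe, and 7 with values raised to the floor (6.96%) or the floor set 1 log2 unit up (7.31%). It was 3 of 10 with the floor from negative-control probes, 5 of 25 among genes between the floors (an alternative chosen after seeing the data), 2 at a 2-fold limit and 0 at 3 local robust SDs. The number of lower members was 5 under centring (11.1%), trend removal (11.2%), the brightest probe (13.2%), raised values (11.8%) and between the floors. It was 8 with no floor, 3 with the higher floor (12.8%), 0 with the negative-control floor, 2 at 2-fold and 1, Ift56, at 3 local robust SDs. The median of members above the floor was -0.0067 with no floor, and 0.12 to 0.18 under the other settings. Their mean, taken in place of the median, was 0.03. Fewer genes enter under the stricter floors and limits, and more with none; other causes of these moves were not tested. Of 140 values of single members under centring, trend removal, the brightest probe and raised values, 139 moved by less than the local robust SD. The exception was Dync2i1, at 0.43 with values raised to the floor, which took it below 1.5-fold. Many of the 140 could not move far. All 43 members have 1 probe set, so the brightest probe changes none of them. Raising values alters only the 3 members with 1 value below the floor, and centring takes the same -0.05 log2 units off every gene. The count of 139 therefore says little about how stable the differences are. No paired analysis was possible because each group had 1 array, and for the same reason no replicate could be left out. Signal over background limits the dim members most: 25 of 35 lay below the negative-control floor.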
